A study of Mus musculus with 2 samples.

Results

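The 1495 regions described here are Myc-Tag ChIP-seq intervals of a mouse T-cell lymphoma that sit at an end of a single protein-coding gene. They were taken from 3477 called intervals. Of these, 3190 lay on chromosomes 1 to 14 and 16 to 19, and 23 of the 3190 were dropped because an interval with the same coordinates was called in the input. Each of the remaining 3167 eligible intervals was represented by its summit, the position of its highest signal. An interval was kept when the summit lay within 1 kb of an annotated start or end of exactly 1 protein-coding gene, which gave 47.2% of the eligible intervals (95% Wilson interval 45.5 to 48.9). The 1495 intervals belonged to 1460 genes, 1425 with 1 interval and 35 with 2. Among 19889 protein-coding genes on these chromosomes, the share with such an interval was 7.34%, and the share with any eligible summit within 1 kb was 11.0%.

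The cells came from Lck-Dlx5 transgenic mice, in which the Lck promoter drives a Myc-tagged Dlx5 homeobox protein in thymocytes. An antibody to the tag was used to isolate Dlx5 with its DNA, and the input is chromatin of the same tumor type. There was 1 library of each kind and no replicate, so no difference between conditions was tested, and intervals on one genome are not replicates of a condition. The labels give a primary tumor of strain C57BL/6 for the ChIP and C57BL/7 for the input, whereas the methods describe a cultured line from such a lymphoma, with IgG as the control. The transgene was present in both libraries and no library from cells without it was analysed here, so capture through the tagged Dlx5 cannot be told apart from other capture by the antibody.

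Protein-coding genes begin at a promoter, where RNA polymerase and general transcription factors assemble, and end near a polyadenylation site. Many promoters of broadly expressed genes lie in CpG islands, stretches rich in G and C in which the CG dinucleotide has not been depleted. Dlx proteins bind DNA through a homeodomain, whose core recognition letters are TAATT.

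To show the DNA under the tallest summits, the promoters of the 6 tallest intervals whose summit fell inside a promoter window are printed here. Each window is 300 bases of the RefSeq sequence of GRCm38.p6, from 250 before to 50 after a listed transcription start, so that the start is base 251. Capitals mark matches to the 12 letter strings described further on, on either strand.
Mapkapk5, chr5:121545843-121546142, minus strand: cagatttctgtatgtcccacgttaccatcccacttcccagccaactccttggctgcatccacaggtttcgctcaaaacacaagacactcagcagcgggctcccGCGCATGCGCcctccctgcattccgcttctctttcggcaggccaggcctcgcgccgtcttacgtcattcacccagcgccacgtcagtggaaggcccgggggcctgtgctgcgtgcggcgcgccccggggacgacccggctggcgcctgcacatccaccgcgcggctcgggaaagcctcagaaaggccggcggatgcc
Trap1, chr16:4077761-4078060, minus strand: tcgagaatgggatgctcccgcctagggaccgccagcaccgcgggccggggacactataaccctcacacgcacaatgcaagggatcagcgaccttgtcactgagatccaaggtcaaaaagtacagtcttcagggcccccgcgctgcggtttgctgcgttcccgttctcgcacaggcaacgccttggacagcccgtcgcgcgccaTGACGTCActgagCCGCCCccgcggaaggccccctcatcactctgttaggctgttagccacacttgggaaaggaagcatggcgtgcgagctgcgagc
Ankle2, chr5:110230754-110231053, plus strand: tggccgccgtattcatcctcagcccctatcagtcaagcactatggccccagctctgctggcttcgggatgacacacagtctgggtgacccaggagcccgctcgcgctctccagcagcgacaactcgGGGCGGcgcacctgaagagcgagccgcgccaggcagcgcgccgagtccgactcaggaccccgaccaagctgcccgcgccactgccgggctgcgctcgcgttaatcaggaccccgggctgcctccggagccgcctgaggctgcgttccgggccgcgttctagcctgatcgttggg
Cltc, chr11:86757518-86757817, minus strand: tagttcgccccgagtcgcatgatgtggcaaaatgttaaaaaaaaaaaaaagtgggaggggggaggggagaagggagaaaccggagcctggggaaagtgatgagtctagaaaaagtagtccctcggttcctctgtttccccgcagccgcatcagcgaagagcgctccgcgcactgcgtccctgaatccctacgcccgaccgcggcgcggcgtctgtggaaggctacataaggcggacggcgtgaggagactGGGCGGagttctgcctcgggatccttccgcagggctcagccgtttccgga
Rabggtb, chr3:153912917-153913216, minus strand: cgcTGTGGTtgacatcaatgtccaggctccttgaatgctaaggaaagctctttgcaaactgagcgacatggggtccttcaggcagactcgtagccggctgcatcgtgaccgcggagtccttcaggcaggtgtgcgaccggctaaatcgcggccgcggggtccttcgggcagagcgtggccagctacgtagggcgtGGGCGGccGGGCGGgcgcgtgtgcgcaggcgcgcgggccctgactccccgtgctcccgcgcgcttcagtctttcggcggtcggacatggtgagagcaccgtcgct
Bmf, chr2:118549637-118549936, minus strand: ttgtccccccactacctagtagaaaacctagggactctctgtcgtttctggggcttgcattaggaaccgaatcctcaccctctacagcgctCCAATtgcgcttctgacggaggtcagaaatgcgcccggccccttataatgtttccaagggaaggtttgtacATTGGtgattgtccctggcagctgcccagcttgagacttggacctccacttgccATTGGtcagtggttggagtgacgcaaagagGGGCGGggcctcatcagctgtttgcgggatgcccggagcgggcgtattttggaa
The summit fell at base 223 of the Mapkapk5 window, 205 of Trap1, 207 of Ankle2, 186 of Cltc, 129 of Rabggtb and 81 of Bmf. Summit heights were 48 for Mapkapk5, a protein kinase, 41 for Trap1, a mitochondrial chaperone, and 39 for Ankle2, a nuclear envelope protein. They were 39 for Cltc, the clathrin heavy chain, 38 for Rabggtb, a subunit of the enzyme that adds lipid to Rab proteins, and 37 for Bmf, a pro-apoptotic Bcl2 family protein. None of the 6 windows held TAATT or its reverse complement AATTA. In the Mapkapk5 window the 2 matches to GCATGCGC lie on opposite strands and overlap. The CpG ratio, the observed count of CG over that given by the C and G content, was at least 0.888 in 5 of them and 0.567 in the Bmf window.

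TAATT is the motif of the Dlx family, so the tallest summits that lie inside a promoter window with these letters are shown as well, each with the stretch around the match. Taller summits at genes with TAATT in the window, such as Slc11a1 at 56 and H1f3 at 55, lay outside the window. This choice of 5 was added after the values were seen. The capitals mark the match nearest to the summit, with up to 18 bases on each side inside the window.
Ppp3cb, chr14:20546609-20546649, minus strand: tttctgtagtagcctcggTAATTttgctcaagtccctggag
Mtf2, chr5:108065536-108065576, plus strand: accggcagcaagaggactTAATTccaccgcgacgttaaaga
Mrpl1, chr5:96209879-96209919, plus strand: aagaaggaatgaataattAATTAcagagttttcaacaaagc
Med6, chr12:81594959-81594983, minus strand: ctcttatagcgcttttggAATTAtg
Klhdc4, chr8:121829760-121829800, minus strand: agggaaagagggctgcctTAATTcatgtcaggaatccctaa
The summits were 36 high at Ppp3cb, a calcineurin subunit, 36 at Mtf2, a Polycomb accessory protein, 31 at Mrpl1, a mitochondrial ribosomal protein, 31 at Med6, a Mediator subunit, and 29 at Klhdc4. The centre of the match, counted from the summit with negative values upstream, lay at 13 bases in Med6, -28 in Mtf2, -37 in Ppp3cb, -180 in Klhdc4 and -181 in Mrpl1. A match here is a description of letters and not a binding site.

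The height of a summit is a score in whole numbers, for which the sources used here give no normalization, and the depth behind it is unknown. Among the 1495 intervals, heights ran from 9 to 73 with a median of 15 (95% order-statistic interval 15 to 15) and an interquartile range of 13 to 18. The median equalled that of 763 intervals inside gene bodies (15, interval 15 to 15) and of 340 between genes (15, interval 15 to 16). The 381 intervals with ends of 2 or more coding genes within 1 kb had a median of 16 (interval 16 to 17). Heights of at least 19, the upper quartile of all Myc-Tag summits, were reached by 24.4% of the single-end intervals (22.3 to 26.7). The shares were 30.4% with 2 or more coding ends (26.0 to 35.2), 30.9% at noncoding ends only (24.7 to 37.8), 24.0% in gene bodies (21.1 to 27.1) and 27.6% between genes (23.2 to 32.6).

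Widths differed between positions. Single-end intervals had a median width of 782 bp (95% interval 766 to 795). Intervals in gene bodies were narrower at 670 bp (653 to 694), and those between genes were narrower still at 616.5 bp (598 to 642). The intervals with 2 or more coding ends were wider, at 847 bp (816 to 880). The 95% intervals of these 4 medians did not overlap. Intervals at noncoding ends only had a median of 791.5 bp (717 to 843), which overlapped both the single-end range and that of 2 or more coding ends. These ranges cover counting error among the intervals of 1 library only.

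**Figure D1:**
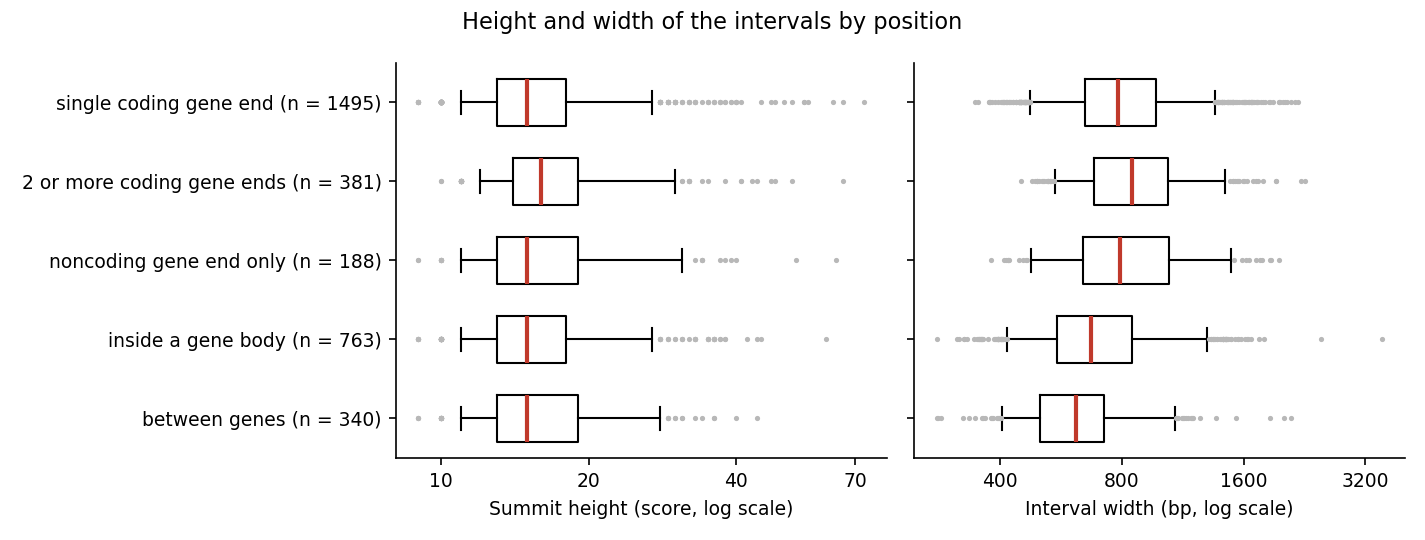
Summit height (score) and interval width (bp) on log axes for the 5 positions of the eligible intervals, with n beside each name. Red lines are medians, boxes quartiles, whiskers the 5th and 95th percentiles and points the intervals beyond them. The height boxes overlap almost fully, while the median width is 847 bp at 2 or more coding ends and 616.5 bp between genes.

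The tallest single-end summit was 73, at H1f2, a linker histone gene, on chr13:23738597-23740745. Its summit lay 21 bp beyond the end of a gene of 725 bp, which the interval of 2149 bp held whole. Adnp, a zinc finger and homeobox protein of chromatin, had a summit of 66 lying 312 bp upstream of its start. Tpra1, a membrane protein, had one of 63 lying 117 bp inside the gene. Slc11a1, a metal ion transporter of phagocytes, had one of 56 lying 887 bp beyond its end. The linker histone genes H1f3 and H1f5 had summits of 55 each. Thus 3 of the 6 tallest summits were at linker histone genes.

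The next of the 20 tallest ran from 52 to 37. Ewsr1, an RNA-binding protein, reached 52 with the summit 269 bp upstream of its start, where a listed start of another coding gene also lay within 1 kb. Dync1li2, a dynein subunit, reached 50. Rbm25, a splicing regulator, reached 47 with the summit 112 bp upstream, and Jarid2, a Polycomb-associated protein, reached 45 with the summit 298 bp inside the gene. Cenpb, a centromere protein, Ogfod2 and Ppp6r3, a phosphatase subunit, reached 40 each, at 445, 353 and 255 bp upstream of their starts. Uspl1, a SUMO protease, reached 38. Mrps21, a mitochondrial ribosomal protein, reached 37 with the summit 586 bp beyond its end. With Mapkapk5, Trap1, Ankle2, Cltc and Rabggtb these make the 20. Bmf and Lrpprc, both nearest the start, also reached 37 and were placed after Mrps21 for their wider intervals. In the 18 of the 20 whose strand was given, 13 summits were nearest the start and 5 nearest the end.

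Start and end of a gene could be told apart for 1222 of the 1495 intervals (81.7%). The others included all 43 on chromosome 18, for which no promoter sequence was used here. Of the 1222, the summit was nearer the start in 1160 (94.9%, 93.5 to 96.0) and nearer the end in 62. The distance rule took both ends of a gene alike. The rule also left out the 381 intervals near ends of 2 or more coding genes, so the split holds for the kept intervals only. The summits at starts lay at a median of 91.5 bp downstream of the gene's outermost start (75 to 114), with an interquartile range from -57.25 to 297 bp. Within 100 bp of the start lay 31.1% of them, and within 300 bp 68.6%. Those over 300 bp downstream made 24.7% and those over 300 bp upstream 6.64%.

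A gene often has several starts. Measured from the listed start of the same gene nearest to the summit, the median offset was 18 bp (2 to 34), and 53.4% lay downstream (50.5 to 56.2) in place of 65.8% (63.0 to 68.5). The direction of this shift is fixed, because no listed start lies upstream of the outermost one. Its size depends on the list, which lacks the outermost start of some genes. At Rbm25 the offset was -112 bp from the outermost start and -3614 bp from the nearest listed one. How much of the shift came from such gaps was not measured. The deposited position was a multiple of 16 bp for 95.1% of the single-end summits, and offsets of a few bases are below that resolution.

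**Figure D2:**
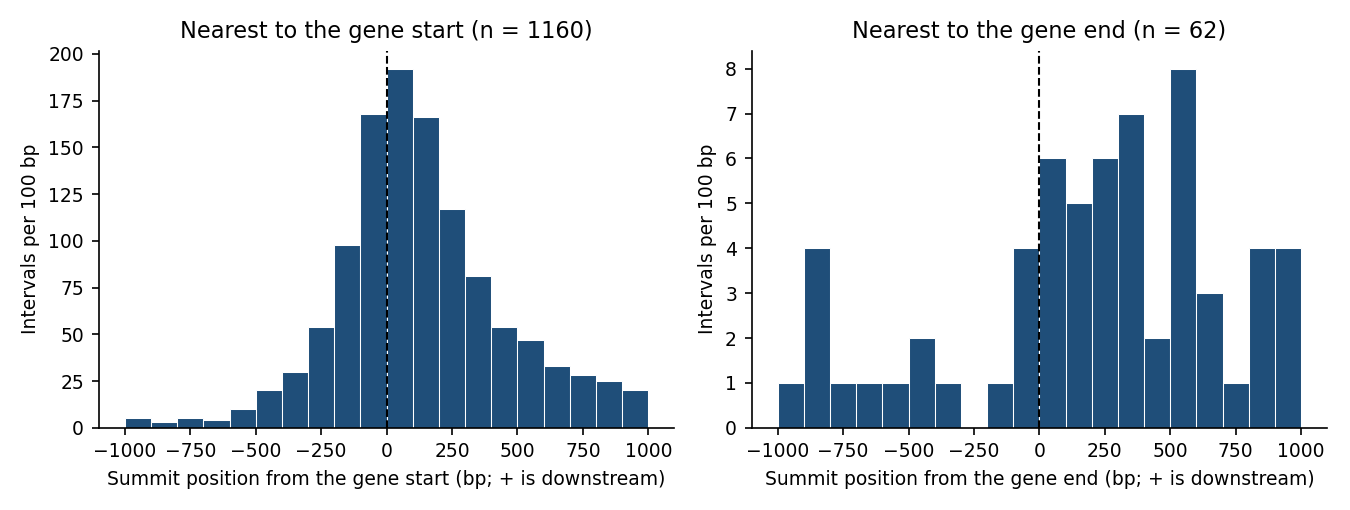
Number of intervals per 100 bp against the position of the summit from the gene start (left, n = 1160) and from the gene end (right, n = 62), with positive values downstream. The left distribution peaks in the bins beside the start, with 168 and 192 intervals, and the right one lies mostly beyond the gene end.

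Summits close to a start were somewhat taller. Within 100 bp the median height was 17 (16 to 17, n = 361). It was 15 from 100 to 300 bp (14 to 15, n = 435) and 14 from 300 to 1000 bp (14 to 15, n = 364).

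The rule fixed that the summit lay within 1 kb of its own gene end and over 1 kb from any other coding gene end. Within that, the interval spanned the nearest gene end in 1173 of 1495 (78.5%). The next coding gene end was a median of 13.8 kb away and over 10 kb away in 59.0%, while it was within 2 kb in 8.36%. An end of a noncoding gene lay within 1 kb in 274 (18.3%), of which 219 were at a lncRNA, 16 at a snoRNA and 11 at a miRNA. A listed start of another coding gene, other than its outermost end, lay within 1 kb in at least 28. None could be counted for the 43 intervals on chromosome 18, which had no listed start. Member genes had a median length of 24.8 kb (22.9 to 26.3), against 17.4 kb (17.1 to 17.9) for all coding genes.

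The 62 intervals at gene ends differed from those at starts in which genes they held. Histone genes, which encode the proteins around which DNA is wound and are mostly short, made 22 of the 62 (35.5%, 24.7 to 47.9) and 6 of the 1160 at starts (0.517%, 0.237 to 1.12). Of the 62, 20 were at genes of at most 1 kb, where a summit is close to both ends. All 20 were at histone genes, and their summits lay only 308 to 1251 bp from the gene start. In 7 of those 20 the interval held the whole gene. The histone count at ends thus rests largely on short genes. The share of histone genes among all coding genes is not given here. The median height was 18 at the 20 short genes (15 to 25) and 14.5 over the other 42 intervals (13 to 18). In all, 29 intervals were at histone genes, with heights from 11 to 73. Some replication-dependent histone genes are near-identical copies in clusters. How reads that match several copies were treated is not given in the sources used here.

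Of the 42 intervals at the ends of longer genes, which belonged to 41 genes, 30 had the summit beyond the gene (71.4%, 56.4 to 82.8). Ribosomal protein genes of the cytosolic ribosome made 5 of these 42 and 19 of the 1160 at starts. Splicing and RNA-binding genes made 3 of the 42 and 10 of the 1160. These lists held 76 and 63 of the 19889 coding genes. A further 11 ribosomal and 2 splicing intervals had no strand given and are in neither count. An annotated end of a noncoding gene lay within 1 kb of 3 of the 42 summits, and another listed start of the same gene within 1 kb of 1. The gene list counts are small, and no test was run on them.

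Of the 35 genes with 2 intervals, 14 had one at each end, 14 had both at the start, 1 had both at the end and 6 had no strand given. At the 14 genes with one at each end, the summit at the end lay beyond the gene every time, by 223 to 995 bp. The summit at the start was taller in 11 of these genes, the one at the end was taller in 2, and both were equal in 1. Cnbp, a nucleic acid-binding protein, had a height of 23 at the start and 11 beyond the end. Kpnb1, a nuclear import receptor, had 23 and 20. Txnip, a thioredoxin inhibitor, went the other way with 16 and 21, as did Rplp0, a protein of the ribosomal stalk, with 12 and 18. Satb1, a chromatin organizer of thymocytes, had 11 at both ends of a gene of 97104 bp. Without replicates, the error of each height is not known.

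**Figure D3:**
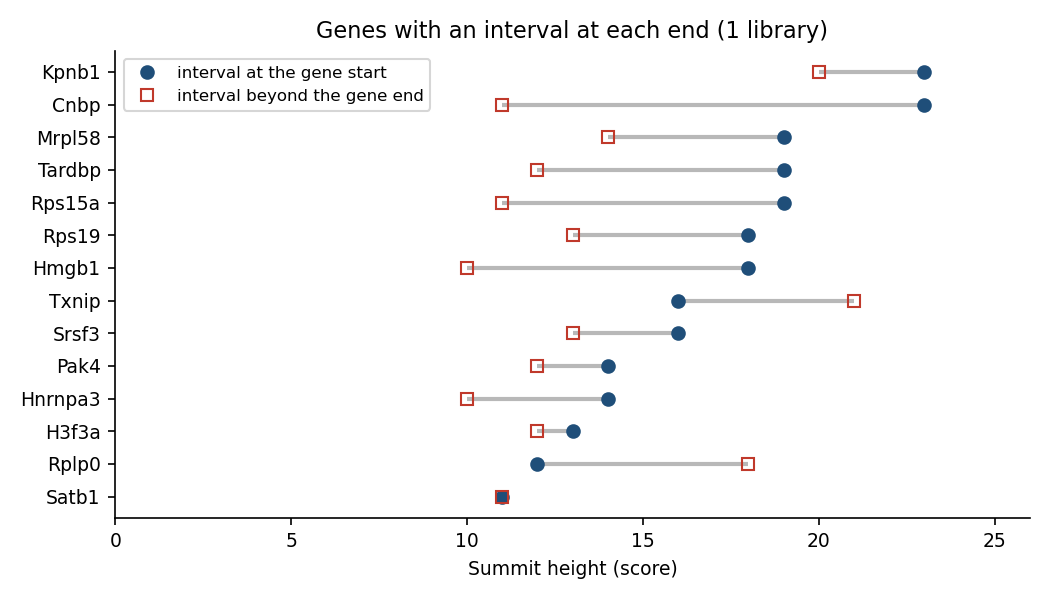
Summit height (score) at the start (filled circles) and beyond the end (open squares) of the 14 genes with an interval at each end, 1 library. The circle is to the right of the square in 11 genes, and the order is turned at Txnip and Rplp0.

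Where both intervals were at the start, their summits were 480 to 1872 bp apart with a median of 776 bp. Ppp3cb had the tallest of these, at 36 beside one of 14. Sp3, a zinc finger factor that binds GC-rich promoters, had 24 and 17, Msl2, a chromatin ubiquitin ligase, 21 and 13, and Eapp 20 and 20. Among all 35 genes with 2 intervals, 6 shared the next tallest summit of 19, namely Caprin1, Ranbp2, Cdk19, Mrpl58, Rps15a and Tardbp.

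The gene families named by symbol were set beside the background of 7.34%. These lists and all other groupings were chosen with earlier results of these data known, and counts are given without a test. Genes of the cytosolic ribosome held the highest share of the lists. Of 76 cytosolic ribosomal protein genes, 31 had a single-end interval (40.8%, 30.4 to 52.0), among them Rps12 with a height of 30, Rpl21 with 28 and Rpl10a with 26. Translation factors had 13 of 62 (21.0%, 12.7 to 32.6), with Eef1a1, the elongation factor that delivers tRNA, at 32, Eif4a1 at 22 and Eif4a2 at 20. Their list also caught Eif2ak3, at 23, a stress kinase that acts on an initiation factor. Aminoacyl-tRNA synthetases had 6 of 33 (18.2%, 8.61 to 34.4), with Yars2 at 24, Mars2 and Mars1 at 16 and Aars at 15. Mitochondrial ribosomal protein genes had 11 of 77 (14.3%, 8.17 to 23.8), including Mrpl1 at 31, Mrps31 at 29 and Mrpl35 at 23.

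The exclusion of intervals near several coding genes lowered some families more than others. Any eligible summit within 1 kb was found at 36.4% of mitochondrial ribosomal protein genes and 45.5% of synthetase genes, against 11.0% of all coding genes. The share rose from 40.8% to 53.9% for the cytosolic ribosome. It was the same for the T cell markers, at 24.1%.

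Genes that handle RNA, chromatin and protein turnover lay above the background as well. Splicing and RNA-binding genes had 13 of 63 (20.6%, 12.5 to 32.2), led by Sf3a3 at 24, Snrpc and Lsm14a at 23 and Srsf10 at 20. RNA helicases had 8 of 49 (16.3%, 8.51 to 29.0), led by Dhx9 at 20, Ddx41 at 19, Dhx33 at 17 and Dhx40 at 16. Chromatin regulators had 15 of 50 (30%, 19.1 to 43.8), among them the histone methyltransferase Kmt2a at 27, the remodeler Chd8 at 23, the demethylase Kdm1a at 21 and Chd2 at 19. General transcription genes had 16 of 96 (16.7%, 10.5 to 25.4), with the Mediator subunits Med6 at 31, Med4 at 28 and Med23 at 20 and the RNA polymerase III factor Gtf3c6 at 28. Ubiquitin genes had 23 of 91 (25.3%, 17.5 to 35.1), led by Ube2d3 at 27, Ube2g2 at 26, Usp30 at 24 and Ube2cbp at 22. The proteasome list had 7 of 50 (14%, 6.95 to 26.2), with Psmd12 at 24, Psmd9 at 21, Psmd3 at 20 and the assembly chaperone Psmg3 at 27. For the proteasome the interval around the share reached below 7.34%.

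Replication and cell cycle genes had 21 of 95 (22.1%, 14.9 to 31.4), with the cyclin-dependent kinase Cdk11b at 33 and the phosphatase Cdc25a at 23. That list also took in Cdk5rap2, a centrosome protein, at 27 and Cdk5rap1, a tRNA-modifying enzyme, at 26. Respiratory chain genes had 13 of 96 (13.5%, 8.09 to 21.8), with Ndufa10 at 27, Ndufc2 at 24, Ndufs7 at 22 and the assembly factor Ndufaf1 at 23. Trafficking genes had 19 of 131 (14.5%, 9.49 to 21.5), led by Rab12 and Vps13d at 22 and by Vps72 and Rab8a at 21, of which Vps72 is a chromatin protein.

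Other families lay at or under the background. Zinc finger genes of the Zfp series had 29 of 377 (7.69%, 5.41 to 10.8), with Zfp771 at 23, Zfp869 at 21, Zfp207 at 20 and Zfp810 at 19. Solute carriers had 19 of 345 (5.51%, 3.55 to 8.44), of which Slc11a1 at 56 was followed by Slc39a13 at 30, Slc35b1 at 27 and Slc33a1 at 25. Of 1518 genes of tissue-restricted families, the olfactory and vomeronasal receptors, keratins and defensins, none had an interval at an end, a count that allows a share of up to 0.198% (3 genes).

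Among T cell markers, 7 of 29 genes had a single-end interval (24.1%, 12.2 to 42.1), with heights of 10 to 17. The list includes Notch1 and Notch3, which the study reported as Dlx5 targets from this ChIP-seq together with ChIP-qPCR and reporter assays. It also includes Hes1, which the study followed as a target of Notch. The costimulatory receptor Cd28 had 17 and Notch1 16. The CD3 subunits of the T-cell receptor complex had 15 for Cd3d and 10 for Cd3g. The Notch target Hes1 had 14, the coreceptor chain Cd8b1 14 and the recombinase gene Rag2 11. Il7r, the remaining listed marker, was not among the coding genes on the chromosomes used. None of 7 B cell, 6 myeloid, 5 erythroid and 6 stromal, vascular and epithelial markers had one. By the same limit of 3 genes, these counts of 0 allow shares of up to 42.9% for the B cell list, 50% for the myeloid list, 60% for the erythroid list and 50% for the last, so absence was not detectable with lists this short.

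**Figure D4:**
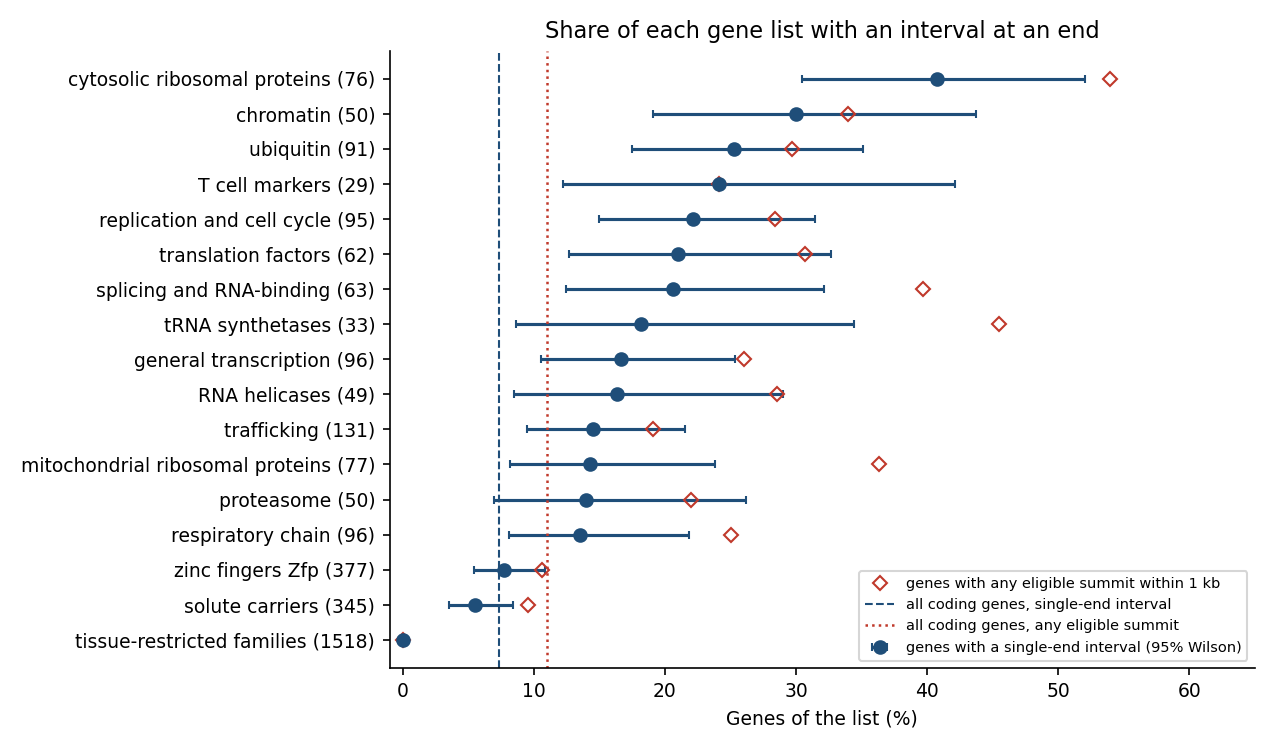
Share of the genes of each list (number of genes in brackets) with a single-end interval (filled circles, 95% Wilson intervals, and for the list at 0 the share that 3 genes would give) and with any eligible summit within 1 kb (open diamonds). The dashed and dotted lines are the shares over all coding genes, 7.34% and 11.0%, and the cytosolic ribosomal protein genes stand farthest to the right at 40.8% and 53.9%.

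Of 5 genes taken from the study, namely Notch1, Notch2, Notch3, Irs2 and Ccnd1, some met the rule and others did not. Notch1 had an interval at chr2:26458145-26459167 with a height of 16, its summit 914 bp inside the gene from its end. The other interval listed for Notch1, at chr2:26449361-26450145 and also 16 high, lay 8206 bp beyond the gene end and was not kept. Notch2 had one of height 17, 66 bp from an annotated start or end. Irs2, an adaptor of insulin and cytokine receptors, had one of height 14, 447 bp from an annotated start or end. Neither was among the 62 intervals classed as nearest the gene end. The Notch3 interval, 11 high, lay in the gene body, 2784 bp from an annotated start or end. The interval near Ccnd1, the gene of cyclin D1, was 25 high and 1865 bp away. The Notch3 and Ccnd1 intervals were not kept. Of the 1495 single-end summits, 36.5% were taller than that of Notch1 and 55.8% taller than that of Irs2.

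At the limit of 1 kb, the last genes inside were Eif4a1 at 999 bp with a height of 22, Gapdh at 995 bp with 15 and Pak4 at 995 bp with 12. The first outside were Bbs2 at 1001 bp with 15, Tle5 at 1004 bp with 15 and Polr3e at 1006 bp with 14. Of the 23 intervals dropped for the input, 2 would otherwise have been at a single coding gene end, with Myc-Tag heights of 40 and 31 beside input heights of 21 and 15.

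Across chromosomes there were 7.52 single-end intervals per 100 coding genes (exact 95% Poisson interval 7.14 to 7.91). The lowest value was 4.73 on chromosome 7 (3.83 to 5.78) and the highest 9.65 on chromosome 13 (7.65 to 12.01), which holds the large histone cluster. The single-end share of eligible intervals ran from 40% on chromosome 9 to 58.7% on chromosome 8, and the median height from 14 to 16.

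The promoters of genes with an interval at the start were rich in CpG. A window was available for 1107 of these genes and for 14442 coding genes in all, of which the 1107 are part. The median GC content was 62.7% (62.0 to 63.3) against 56.7% (56.3 to 57.0), and the median CpG ratio 0.847 (0.835 to 0.863) against 0.602 (0.592 to 0.612). A CpG ratio of at least 0.6, a usual mark of a CpG island, was found in 89.0% (87.0 to 90.7) against 50.2% of all, and in 45.1% of coding genes with no eligible summit within 1 kb. Genes that shared an interval with another coding gene had 88.8% (86.0 to 91.2). The 122 intervals with a CpG ratio under 0.6 had a median height of 15 (14 to 16), as did the 999 at or above it (15 to 16).

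The 12 letter strings searched on both strands were TAATT for Dlx, CCGGAAG for ETS factors, CCAAT for NF-Y, GGGCGG for Sp and Klf factors, TGACGTCA for Creb and Atf, GCATGCGC for Nrf1, TATAAA for Tbp, AAGATGGC for Yy1, CACGTG for Myc and Usf, TTTGGCGC for E2f, GTGGGAA for Rbpj, the DNA-binding partner of Notch, and TGTGGT for Runx. The letters TAATTA hold a match on each strand, counted as 1 window. TAATT or AATTA was found in 165 of the 1107 windows (14.9%, 12.9 to 17.1), a lower share than the 24.1% of all 14442 (23.4 to 24.8). With the summit inside the window the share was 15.9% (12.8 to 19.6, n = 441). For the other windows the letters under the summit were not searched. The study reports, from its own motif search of the ChIP-seq, that most of the Dlx5 consensus was of the TAATT type. The shares of promoter windows given here do not measure that.

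The letters A and T are scarcer in GC-rich windows, so the comparison was also made within quartiles of GC content. From the lowest to the highest quartile TAATT was in 48.3%, 28.9%, 13.8% and 3.89% of windows at genes with an interval. In all windows the shares were 55.5%, 23.1%, 12.7% and 3.63%. The lower overall share was thus not seen within the 3 upper quartiles. In the lowest quartile, with 60 windows of genes with an interval, the 95% interval was 36.2 to 60.7. In the next quartile, with 232, it was 23.4 to 35.0. GC content was not matched within the lowest quartile. It ran from 40% to 48.3% at genes with an interval and from 18.3% to 48.3% in all windows. The median height was 15 with TAATT in the window (15 to 16, n = 166) and 15 without (15 to 16, n = 955).

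Other strings were more frequent than in all windows. CCGGAAG was in 23.1% (20.7 to 25.7) against 12.4%, and in 28.3% (24.3 to 32.7) where the summit lay inside the window. GGGCGG was in 72.1% (69.4 to 74.6) against 47.6%, CACGTG in 11.8% (10.1 to 13.9) against 8.08%, GCATGCGC in 6.78% (5.44 to 8.41) against 3.78%, AAGATGGC in 5.15% (3.995 to 6.61) against 3.26% and TTTGGCGC in 1.54% (0.961 to 2.45) against 0.679%. TATAAA was in 6.59% (5.28 to 8.21) against 13.96% and TGTGGT in 9.67% (8.06 to 11.5) against 14.8%. For CCAAT, TGACGTCA and GTGGGAA the 95% interval held the share of all windows, with CCAAT in 37.8% (35.0 to 40.7) against 39.4%. Except for TAATT these shares were not divided by GC content, which also differs between the sets. The differences were not particular to single-end intervals. Genes that shared an interval with another coding gene (n = 573) differed from all windows in the same directions. Their shares were 14.7% for TAATT, 29.5% for CCGGAAG, 65.1% for GGGCGG, 10.5% for CACGTG and 5.93% for GCATGCGC. They were 6.46% for AAGATGGC, 1.57% for TTTGGCGC, 5.24% for TATAAA and 9.25% for TGTGGT.

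**Figure D5:**
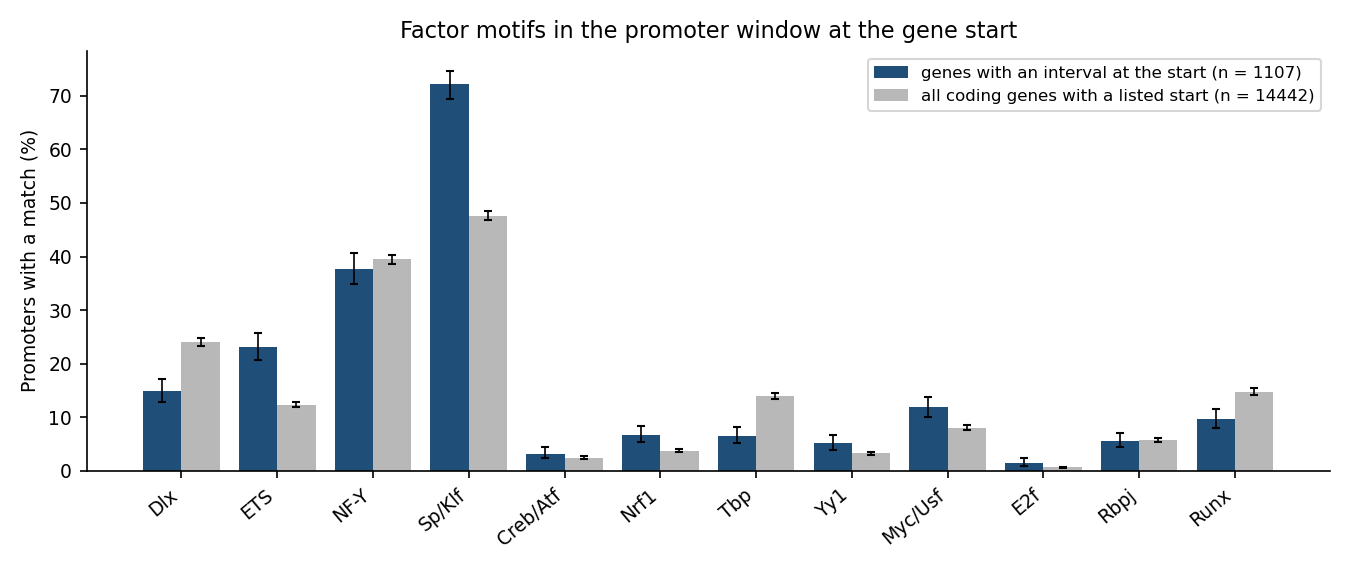
Share of promoter windows of 300 bases with a match to the letters of each factor, at genes with an interval at the start (dark bars, n = 1107) and at all coding genes with a listed start (grey bars, n = 14442), with 95% Wilson intervals. The Dlx bar stands at 14.9% beside 24.1%, and the Sp/Klf bar at 72.1% beside 47.6%.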

How the data were processed

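The material was 1 Myc-Tag ChIP library and 1 input library of Lck-Dlx5 lymphoma. Per the study's methods, Active Motif performed the ChIP-seq on an Illumina GA II and peak calling used the MACS p-value. The submitters' processing notes name BWA and the build mm9. Here coordinates were read as mm10 (GRCm38), because 59.2% of eligible summits lay within 1 kb of a coding gene end of GRCm38.p6. No mm9 annotation was used, so the 2 builds were not compared. The authors deposited called intervals and, for each summit, a score (its height). Read totals were not used here, so the depth is unknown.

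Summits were joined to intervals and to RefSeq genes (GRCm38.p6) with Python 3.11.15, numpy 2.4.6, pandas 2.3.3 and scipy 1.17.1, and plotted with matplotlib 3.10.9. Intervals are printed with starts counted from 1. Strand and starts came from RefSeq promoter sequences of 300 bases. The steps were tested on simulated data. Shares have 95% Wilson intervals, medians 95% binomial order-statistic intervals and counts exact 95% Poisson intervals, all for counting error only. No p-value was computed. A count of 0 was taken to allow 3 genes.

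The intervals, lists and strings were chosen with earlier results of these data known. Named genes were the 20 with the tallest summit, the 10 tallest with 2 intervals, with ties for the last places, plus both cases in which the end was taller, up to 4 per list, 5 genes of the study, and 3 on each side of the limit. The result for 1 gene that the rule names is not reported here. The members of short lists and other genes in prose were chosen after their values were seen. For promoter composition, a first version took only the listed starts that fall exactly on the gene boundary (652 genes with an interval at the start, 9598 coding genes). After its values were seen, it was widened to the listed start nearest to the boundary and within 1 kb of it, which holds more genes (1107 and 14442), and this wider version is the one reported. The offsets from a gene's nearest listed start were added at the same time. The printed promoters follow the wider version and leave out chromosome 18. The alternatives were other distances, another gene set, higher thresholds on the height, any overlap with the input, the middle of the interval and the narrower promoter rule.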

Additional observations from a re-analysis of the deposited data

How the results depend on the processing

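No paired analysis was possible because only 1 library was made per group, and for the same reason no replicate could be left out. Of 43 recomputed values, 27 stayed within the interval of the reported value and 16 moved outside it. With 500 bp in place of 1 kb, single-end intervals made 42.28% of eligible ones, 61.09% had the summit inside the gene and 6.682% of coding genes had one. With 2 kb the share of eligible intervals was 49.86% and the share nearest the start 93.14%. With exactly 1 gene of any type, the share of eligible was 43.48% and of coding genes 6.013%. With heights of at least 16, the median of all Myc-Tag summits, 58.32% lay inside the gene, 3.454% of genes had an interval and the median height was 19. With heights of at least 19, the share of eligible was 44.73%, inside the gene 52.05%, nearest the start 92.51%, of genes 1.825% and the median height 22. With the middle of the interval as its position, 67.73% lay inside the gene. Any overlap with an input interval in place of the same coordinates selected the same intervals. Its values, counted among the 27, were therefore fixed in advance. A higher threshold on the height likewise had to raise the median height and lower the share of genes.

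The narrower promoter rule, run first, was added to the alternatives after its values were seen. It gave TAATT in 14.88% of windows at genes with an interval, against 27.8% of all 9598, and CCGGAAG in 23.2% against 10.6%. A CpG ratio of at least 0.6 was in 86.8% against 43.0%. The share of all windows with TAATT thus moved from 27.8% to 24.1% with the rule, and the order of the 2 sets did not. Depth, the threshold of the caller and the lack of a library without the transgene limit what an interval or its absence shows.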
